A study of Mus musculus with 6 samples.

Results

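The 10 genes described here encode the enzymes that trim N-linked glycans on newly made glycoproteins, namely the glucosidases of the endoplasmic reticulum and the mannosidases of the endoplasmic reticulum and the Golgi. They were chosen by name, as an enzyme class and not by their values, though with earlier results of these data known. All 10 were found among the 48699 genes of the deposited table, each in 1 row. Liver mRNA was sequenced in 6 libraries from male mice of the strain C57BL/6 at an age of 10 to 12 weeks. The mice had fasted overnight for 8 to 10 hours, and the column names of the deposited table mark all 6 libraries as chow. Each library was taken as 1 mouse, which the labels do not state. In 3 mice (hepatocyte-specific fxr-/- shp-/-, called double knockout here) the hepatocytes lacked FXR, a bile acid sensor among the nuclear receptors, together with SHP, a repressor that FXR induces. The other 3 mice (Fxrfl/fl Shpfl/fl, called control here) carried floxed alleles of both genes. The labels name no Cre driver, and the whole liver was sampled, so cells other than hepatocytes, not targeted by the deletion, contributed to every value.

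A glycan is attached to a nascent protein in the endoplasmic reticulum as a large precursor capped with glucose and rich in mannose. Glucosidases remove the glucose residues in steps, which lets the lectins calnexin and calreticulin bind and release the folding protein, and class I mannosidases then remove mannose, both to mark proteins that fail to fold and to prepare the others. In the Golgi, mannosidase II removes the last mannose residues that stand in the way of branching, and glycosyltransferases then build the antennae found on most plasma glycoproteins. Hepatocytes secrete most of these plasma proteins. The study's title names N-glycosylation, and the comparison here asks whether the trimming enzymes differed between livers with and without FXR and SHP in hepatocytes.

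Both deleted genes were lower in the double knockout livers. Nr0b2, which encodes SHP, stood at 0.216, 0.0734 and 0.293 FPKM in double knockouts and at 14.7, 17.6 and 18.7 FPKM in controls, and Nr1h4, which encodes FXR, at 21.1, 15.5 and 22.0 FPKM against 59.8, 71.8 and 68.0 FPKM in controls. FPKM are fragments scaled by transcript length and by the library's mapped fragments, so levels can be set beside each other across genes. Depth was estimated from low values of FPKM multiplied by transcript length in kb, taking those between 0.05 and 0.1 as 1 fragment. Their medians were 0.0707 to 0.0758 in the 6 libraries. The fixed window bounds these medians, so they cannot show whether depth was similar. Albumin was the leading hepatocyte marker in all libraries, at 17009 to 34609 FPKM in double knockouts and 37008 to 43645 FPKM in controls. Control replicate 3 stood apart: 12 immediate-early genes summed to 806 FPKM there, against 67.4 to 187 FPKM in double knockouts and 58.0 FPKM in the lowest control, and limma's library weights gave it 0.232, against 0.981 to 2.13 for the other libraries. Fold changes of the members are therefore given with and without it. The summed level of 10 macrophage markers was 173 to 400 FPKM in double knockouts and 79.8 to 207 FPKM in controls. All 10 of these markers had a positive fold change and 1 of them, Mpeg1, was called higher. Mpeg1 was also the only one whose groups were apart. Double knockout replicate 2 was the highest library for all 10. Lyz2, for example, was at 87.6 FPKM there, at 30.3 and 22.0 FPKM in the other double knockouts and at 47.6 FPKM in control replicate 3. The summed level of 8 hepatocyte markers was 29385 to 50095 FPKM in double knockouts and 55511 to 66784 FPKM in controls. Of these 8, 0 were called, the fold change was positive in 1 and negative in 7, and albumin was the only marker whose groups were apart. The other 7 summed to 12376 to 17628 FPKM in double knockouts and 16240 to 23139 FPKM in controls, with overlap. The 8 cholangiocyte markers, of which 4 were tested, all with positive fold changes, summed to 59.8 to 64.5 FPKM in double knockouts and 34.2 to 44.8 FPKM in controls. Spp1 alone made up 55.2 to 60.9 FPKM of this in double knockouts and 31.1 to 42.6 FPKM in controls, and it was called higher without control replicate 3 (limma adjusted p = 0.037). The other 7 summed to 3.61 to 4.53 FPKM in double knockouts and 2.15 to 3.72 FPKM in controls, with overlap. Of the cholangiocyte markers tested, Spp1 and Epcam had groups apart. Epcam was at 1.29, 0.935 and 0.862 FPKM in double knockouts and 0.760, 0.497 and 0.477 FPKM in controls. The sums of the endothelial, stellate and lymphocyte markers overlapped between the groups. Among those of them tested, only the endothelial marker Stab2 had groups apart, higher in double knockouts. None of the macrophage or hepatocyte markers was listed at 0 in every library. In bulk tissue, fewer cells of a type and less RNA per cell cannot be told apart, and the part of either in the trimming genes' values was not tested.

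No trimming gene passed the test. Of the 9 members with a mean of at least 0.5 FPKM, 0 had a limma adjusted p under 0.05, where 37 of 11810 genes tested (0.313%) did. Nor did any have an unadjusted p under 0.05, as 14.9% of all genes did. The 3 double knockout values overlapped the 3 control values in all 10 members, whereas the groups were apart in 22.9% of the genes tested. Fold changes, given as the double knockout minus control difference of log2(FPKM + 1), lay between -0.15 for Prkcsh and 0.39 for Man2a2. Of the 9, 5 were positive and 4 negative, with a median of 0.05, against a median of -0.01 and 49.2% positive over all genes tested. The median size of the change, regardless of sign, was 0.13 for the members and 0.22 over all genes tested. The bounds of the 95% intervals reached from -0.53 (Mogs and Ganab) to 0.83 (Man2a2), and the last corresponds to 1.78-fold on the FPKM + 1 scale. The authors' deposited table gives a test for 9 of the members, with q-values from 0.434 to 0.970, and 0 were called, against 4.58% of the 11844 genes with a test there.

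**Figure D1:**
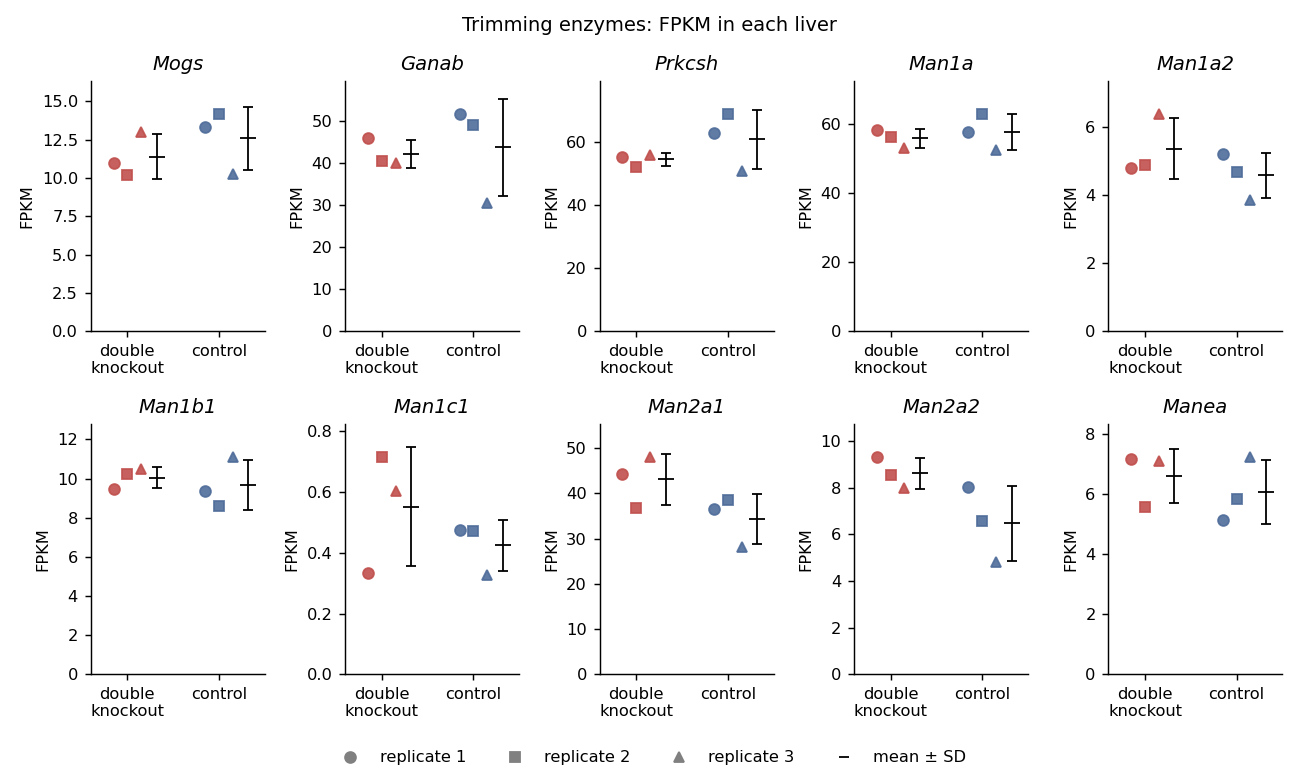
FPKM (vertical axes, each from 0) of the 10 trimming genes in the 3 double knockout livers (red, left) and the 3 control livers (blue, right), with the mean ± SD of each group as a black bar. The groups overlap in every panel, and control replicate 3 is the lowest control in 8 panels and the highest in 2, Man1b1 and Manea.

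Control replicate 3 was thus the lowest control in 8 of 10 members, against 40.2% of all genes tested, and the highest in 2, against 42.8%.

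The level order of the genes was alike in both groups. In double knockouts it ran Man1a, Prkcsh, Man2a1, Ganab, Mogs, Man1b1, Man2a2, Manea, Man1a2 and Man1c1, from a mean of 55.8 down to 0.552 FPKM. Neighbours whose ranges overlapped there were Man1a and Prkcsh, Man2a1 and Ganab, Mogs and Man1b1, and Manea and Man1a2. In controls it ran Prkcsh, Man1a, Ganab, Man2a1, Mogs, Man1b1, Man2a2, Manea, Man1a2 and Man1c1, from 60.9 down to 0.425 FPKM. The controls overlapped between Prkcsh and Man1a, Ganab and Man2a1, Mogs and Man1b1, Man2a2 and Manea, and Manea and Man1a2. The 2 orders differ by exchanges within overlapping neighbours at the top, and Man2a2 and Manea overlapped in controls and not in double knockouts. By mean FPKM over all 6 libraries, Prkcsh ranked 1275 and Man1a 1295 among all listed genes, and Man1c1 ranked 11847.

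The glucosidases act before the class I mannosidases and mannosidase II. Mogs (chromosome 6, 83115496 to 83118898, plus strand, GRCm38) encodes glucosidase I, which removes the outermost glucose. Ganab (chromosome 19, 8898071 to 8916672, plus strand) encodes the catalytic subunit of glucosidase II, and Prkcsh (chromosome 9, 22002806 to 22014222, plus strand) its regulatory subunit, which holds the enzyme in the endoplasmic reticulum and helps it bind its substrate. Their upstream sequences are shown because the 3 genes serve consecutive steps at the entry to the pathway. The bases are from RefSeq's promoter table for GRCm38.p6, are cut where the GENCODE M21 gene begins, and run along the plus strand at chr6:83115256-83115495, chr19:8897807-8898056 and chr9:22002738-22002805, with motif matches in capitals.
Mogs: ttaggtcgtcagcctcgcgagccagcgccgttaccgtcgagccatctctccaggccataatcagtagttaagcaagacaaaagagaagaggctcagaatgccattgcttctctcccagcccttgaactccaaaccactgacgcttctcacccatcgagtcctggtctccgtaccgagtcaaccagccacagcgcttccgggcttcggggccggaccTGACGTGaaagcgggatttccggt
Ganab: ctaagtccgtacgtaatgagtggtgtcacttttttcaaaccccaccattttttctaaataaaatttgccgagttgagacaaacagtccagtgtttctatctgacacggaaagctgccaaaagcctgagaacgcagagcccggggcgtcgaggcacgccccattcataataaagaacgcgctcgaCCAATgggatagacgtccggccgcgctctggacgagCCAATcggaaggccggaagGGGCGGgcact
Prkcsh: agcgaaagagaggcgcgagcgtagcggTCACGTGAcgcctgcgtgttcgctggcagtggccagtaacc
The capitals mark TGACGTG, the core of the unfolded protein response element, upstream of Mogs, CCAAT and GGGCGG upstream of Ganab, and TCACGTGA, an E-box of the type bound by the lysosomal regulator TFEB, upstream of Prkcsh. The Mogs window also holds a GGGCGG, which is not in the printed stretch because its last 10 bases, inside the annotated gene, were cut, and the Prkcsh stretch is only 68 bases long, so the 3 stretches are not comparable in what they can hold.

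Windows were available for 8 of the 10 members. Both strands of the 250 bases before each RefSeq start were searched, beside the same search over all 32851 windows. For Man1a, Man1b1, Man2a1 and Manea most of the window lay inside the GENCODE M21 gene, and for Prkcsh 182 bases did. Matches there need not be upstream of the GENCODE start. How often this holds over all windows was not counted. GGGCGG, the GC box, was in 6 of 8 members (32.7% of all windows) and CCAAT in 4 of 8 (33.8%). TGACGTG was in the Mogs window (1.65% of all windows) and TCACGTGA in that of Prkcsh (0.785%). The TATA box TATAAA was in 0 of 8 (12.4% of all windows). The inverted repeat bound by FXR, AGGTCA and TGACCT with 1 base between them, was in 0 of 8 (0.00609%). The endoplasmic reticulum stress element, CCAAT and CCACG with 9 bases between them, was in 0 of 8 too (0.113%), and any match to it would also be a match to CCAAT. These letters were sought in this window only, and a match describes the sequence without showing that a factor binds.

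Mogs measured 11.0, 10.2 and 13.0 FPKM in double knockouts and 13.3, 14.2 and 10.3 FPKM in controls. Double knockout replicates 1 and 3 lay within the control range, and double knockout replicate 2 was just below control replicate 3, the lowest control. Its log2 fold change was -0.13 (SE 0.17, limma adjusted p = 0.749). Ganab measured 46.0, 40.4 and 40.0 FPKM in double knockouts, against 51.8, 49.0 and 30.5 FPKM in controls. The control values spanned the double knockout values on both sides, with an SD of 11.6 FPKM in controls and 3.35 FPKM in double knockouts, and the log2 fold change was -0.02 (SE 0.22, limma adjusted p = 0.978). Prkcsh, the most abundant member in controls, measured 55.3, 52.0 and 56.0 FPKM in double knockouts and 62.9, 69.0 and 50.7 FPKM in controls. Its log2 fold change was -0.15 (SE 0.16, limma adjusted p = 0.689).

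In Ganab and Prkcsh all double knockout values lay below control replicates 1 and 2 and above control replicate 3, and in Mogs those of double knockout replicates 1 and 3 did. Without control replicate 3, every double knockout value of all 3 genes was below both controls. Such a position held for 23.1% of the 11800 genes tested without that library, so it is common there. The log2 fold changes were then -0.26 for Mogs, -0.25 for Ganab and -0.27 for Prkcsh (limma adjusted p = 0.315, 0.282 and 0.244), and none passed the threshold. Under quantile normalization Ganab and Prkcsh had positive fold changes (0.091 and 0.00047), and Ganab did so under upper quartile scaling too (0.050), so no direction is given for the glucosidases. The ratio of Ganab to Prkcsh, the subunits of glucosidase II, was 0.832, 0.776 and 0.715 in double knockouts and 0.823, 0.710 and 0.601 in controls, with overlapping groups.

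Class I mannosidases remove mannose from the glycan once its glucose is gone. Man1b1 (chromosome 2, 25332338 to 25352212, plus strand) encodes the enzyme known for starting the mannose clock by which misfolded glycoproteins are sent to degradation. It measured 9.45, 10.2 and 10.5 FPKM in double knockouts and 9.36, 8.62 and 11.1 FPKM in controls. The double knockout values lay within the control range, and the log2 fold change was 0.05 (SE 0.15, limma adjusted p = 0.891). Without control replicate 3 the double knockout values lay above both controls (log2 fold change 0.15, limma adjusted p = 0.502). In 44.7% of genes tested without that library the groups were apart in one direction or the other.

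Man1a, Man1a2 and Man1c1 encode the Golgi class I enzymes, which share the removal of mannose between them. Man1a (chromosome 10, 53904785 to 54076609, minus strand) was by far the most abundant of the class, at 58.3, 56.3 and 52.9 FPKM in double knockouts and 57.6, 62.9 and 52.5 FPKM in controls. The double knockout values lay within the control range. Its log2 fold change was -0.04 (SE 0.14, 95% interval -0.37 to 0.28, limma adjusted p = 0.906), and -0.11 without control replicate 3. Man1a2 (chromosome 3, 100562208 to 100685503, minus strand) measured 4.81, 4.90 and 6.41 FPKM in double knockouts and 5.21, 4.67 and 3.88 FPKM in controls. Double knockout replicate 3 was above every control, and the other 2 double knockout values lay inside the control range. The log2 fold change of Man1a2 was 0.19 (SE 0.17, limma adjusted p = 0.629), and 0.09 without control replicate 3 (limma adjusted p = 0.748). Man1a exceeded Man1a2 by 12.1, 11.5 and 8.26 times in double knockouts and by 11.1, 13.5 and 13.5 times in controls, again with overlap.

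Man1c1 (chromosome 4, 134561690 to 134704290, minus strand) was the least abundant member, at 0.334, 0.716 and 0.604 FPKM in double knockouts and 0.474, 0.473 and 0.327 FPKM in controls. With a mean of 0.488 FPKM over all 6 libraries it fell short of the filter and was not tested. For its longest coding transcript of 4715 bases these values correspond to roughly 21 to 47 fragments a library. That number rests on the depth estimate from a fixed window, and at so few fragments counting error is large. Both the highest and the next highest library were double knockouts, while double knockout replicate 1 was almost as low as control replicate 3. With no filter on low values its log2 fold change was 0.12 (SE 0.12, limma adjusted p = 0.721 over 19705 genes), and the authors' deposited table marks it as not tested. Without control replicate 3 its mean reached the filter, and the log2 fold change was 0.066 (limma adjusted p = 0.855).

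Golgi mannosidase II is encoded by Man2a1 and Man2a2 and acts on a glycan that already carries the N-acetylglucosamine added by the transferase Mgat1. These genes had the highest fold changes of the members. Man2a1 (chromosome 17, 64600736 to 64755110, plus strand), the main liver form by level, measured 44.3, 36.8 and 48.1 FPKM in double knockouts and 36.5, 38.4 and 28.1 FPKM in controls. Double knockout replicates 1 and 3 were above every control, while double knockout replicate 2 lay between control replicates 1 and 2. The means were 43.1 ± 5.73 FPKM in double knockouts and 34.4 ± 5.49 FPKM in controls (SD, n = 3 each), a ratio of 1.25 and a log2 fold change of 0.32 (SE 0.18, 95% interval -0.09 to 0.74, limma adjusted p = 0.431). Without control replicate 3 the log2 fold change was 0.19 (limma adjusted p = 0.473), and across the 14 alternatives its sign stayed positive.

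Man2a2 (chromosome 7, 80349097 to 80371375, minus strand), the second form, measured 9.33, 8.55 and 8.01 FPKM in double knockouts and 8.01, 6.58 and 4.82 FPKM in controls. Double knockout replicate 3 and control replicate 1 were level, and all other double knockout values were above all controls. The means were 8.63 FPKM in double knockouts and 6.47 FPKM in controls (coefficients of variation 7.69% and 24.7%, n = 3 each), a ratio of 1.33 and a log2 fold change of 0.39 (SE 0.19, 95% interval -0.06 to 0.83, limma adjusted p = 0.383). This was the lowest p of the members (unadjusted 0.0783). Without control replicate 3 the log2 fold change was 0.22 (limma adjusted p = 0.387). Exons of Hddc3, on the opposite strand, overlap 427 of the 10317 exonic bases of Man2a2. Hddc3 stood at 2.10, 4.83 and 5.44 FPKM in double knockouts and 2.71, 0.737 and 4.41 FPKM in controls. The kit marks strand, but the sources used here do not say whether the counting used it, so fragments of Hddc3 in that stretch could be part of the Man2a2 value.

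Manea (chromosome 4, 26324506 to 26346891, minus strand) encodes endomannosidase, which cuts within a mannose arm and so frees glycans that left the endoplasmic reticulum with glucose still attached, bypassing the glucosidases. It measured 7.17, 5.58 and 7.09 FPKM in double knockouts and 5.14, 5.84 and 7.24 FPKM in controls, and all double knockout values lay within the control range. Its log2 fold change was 0.11 (SE 0.17, limma adjusted p = 0.796). It was 0.22 without control replicate 3 (limma adjusted p = 0.409) and 0.013 without control replicate 1.

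**Figure D2:**
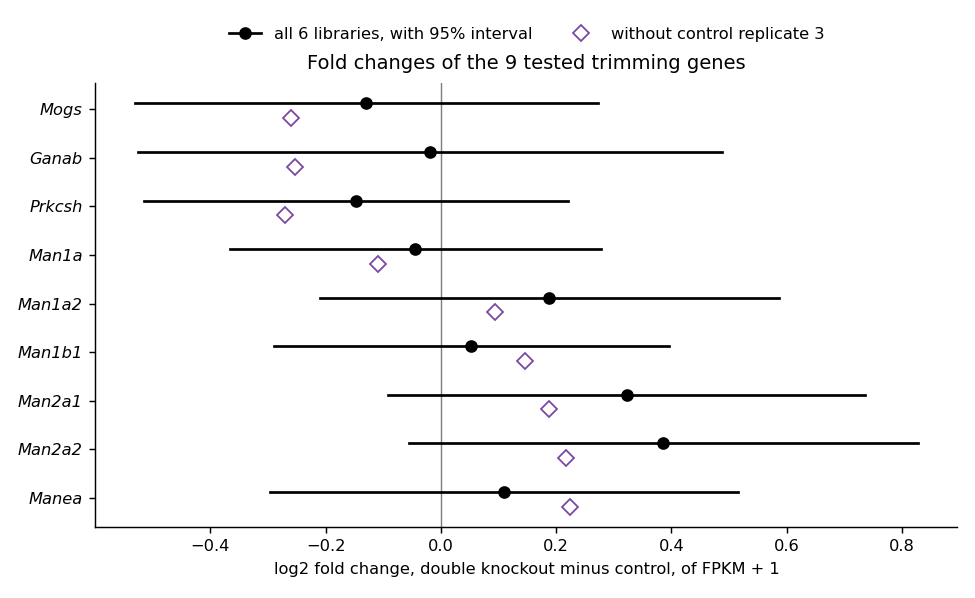
Log2 fold change of FPKM + 1, double knockout minus control (horizontal axis), of the 9 tested trimming genes in pathway order, over all 6 libraries with limma's 95% interval (black) and without control replicate 3 (open diamonds). Every interval includes 0, and leaving out that control moves the glucosidases down, to between -0.27 and -0.25, and Man2a1 and Man2a2 towards 0.

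The levels were also summed by step, as a description formed after the values were seen and not tested. Mannosidase II (Man2a1 and Man2a2) summed to 53.7, 45.4 and 56.1 FPKM in double knockouts and 44.5, 45.0 and 32.9 FPKM in controls, so that the lowest double knockout and the highest control nearly met. The glucosidases summed to 112, 103 and 109 FPKM in double knockouts and 128, 132 and 91.5 FPKM in controls. The Golgi class I enzymes summed to 63.5, 61.9 and 59.9 FPKM in double knockouts and 63.3, 68.1 and 56.7 FPKM in controls. Summed over the 10 genes the level was 238 ± 10.9 FPKM in double knockouts and 237 ± 32.4 FPKM in controls (SD, n = 3 each).

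A ratio within a library does not depend on how that library's total was scaled. Mannosidase II over the glucosidases was 0.478, 0.442 and 0.514 in double knockouts and 0.348, 0.341 and 0.360 in controls, so the groups were apart and control replicate 3 was close to the other controls. The mean ratio was 1.37 times that of the controls, and between 1.32 and 1.42 times with any 1 library left out. Mannosidase II over the Golgi class I enzymes was 0.845, 0.734 and 0.936 in double knockouts and 0.703, 0.661 and 0.581 in controls, also apart. The Golgi class I enzymes over the glucosidases gave 0.565, 0.603 and 0.549 in double knockouts and 0.495, 0.515 and 0.620 in controls, with overlap. Of 8 ratios computed, these 2 with mannosidase II were the ones apart. Such separations are frequent in these data: among the 36 pairs of tested members, the difference of log2(FPKM + 1) was apart between the groups in 9, or 25%, and among all pairs of the 11810 tested genes in 22.3%. In 7 of those 9 pairs the partner that was higher relative to the other in double knockouts was Man2a1 or Man2a2, and in the remaining 2 it was Man1a2. The share over the members is near that of all pairs, and a ratio shows unequal change without saying which gene changed.

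**Figure D3:**
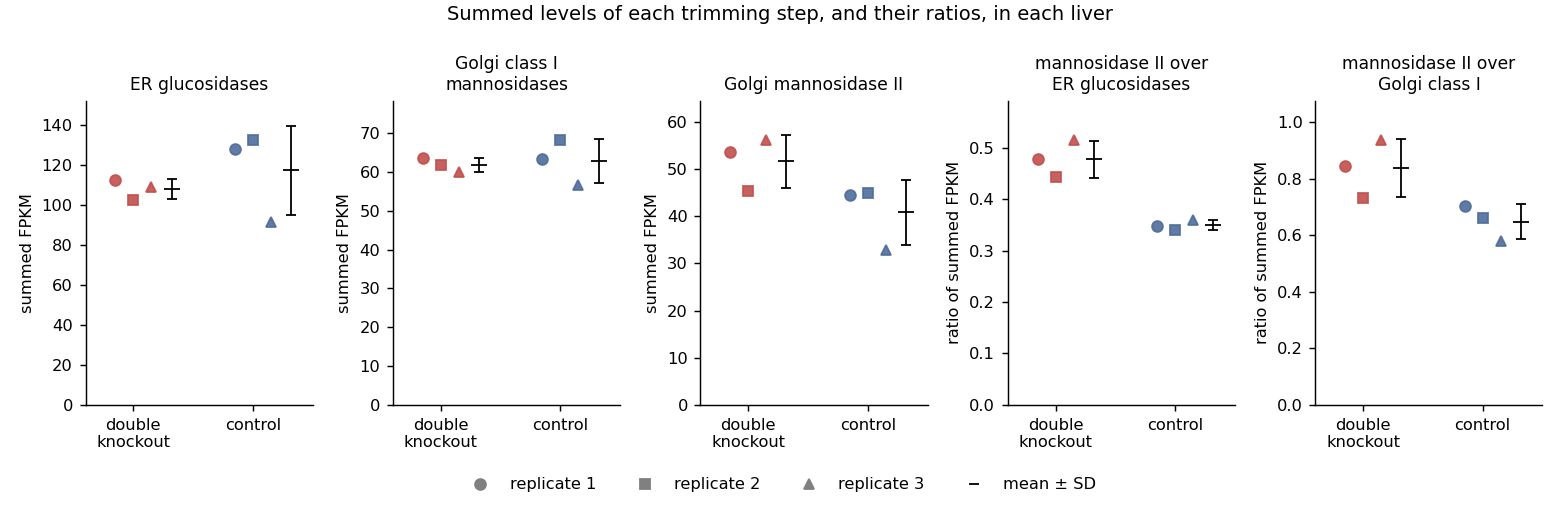
Summed FPKM of the glucosidases (Mogs, Ganab, Prkcsh), the Golgi class I mannosidases (Man1a, Man1a2, Man1c1) and mannosidase II (Man2a1, Man2a2), and 2 ratios of these sums, in each double knockout (red, left) and control (blue, right) liver, with mean ± SD and all axes from 0. The ratio of mannosidase II to the glucosidases is 0.442 to 0.514 in double knockouts and 0.341 to 0.360 in controls.

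The same test across neighbouring steps called no gene of the pathway either. In the calnexin cycle, 0 of 6 genes passed, with 2 positive and 4 negative fold changes (median -0.17, and 0.05 without control replicate 3). Its most abundant genes were Calr, the lectin calreticulin, at 257 ± 44.7 FPKM in double knockouts and 344 ± 64.3 FPKM in controls, and Selenof, a partner of the glycoprotein folding sensor, at 139 ± 20.2 FPKM in double knockouts and 188 ± 93.0 FPKM in controls (SD, n = 3 each). Selenof was at 295 FPKM in control replicate 3, against 126 and 143 FPKM in the other controls, and its log2 fold change was -0.34 with that library and 0.03 without it. Mannose-dependent degradation had 0 of 9 called (4 positive, 5 negative, median -0.04, and 0.03 without control replicate 3), with the lectin Os9 at 53.9 ± 2.00 FPKM in double knockouts and 55.9 ± 7.87 FPKM in controls (log2 fold change -0.04, and -0.16 without control replicate 3). Edem1, a mannosidase-like protein of that step, was at 28.5 ± 3.87 FPKM in double knockouts and 26.6 ± 3.60 FPKM in controls (SD, n = 3 each). The lectin cargo receptors had 0 of 4 called (3 positive, 1 negative, median 0.05), and Lman1, which carries glycoproteins out of the endoplasmic reticulum, was at 62.2 ± 3.83 FPKM in double knockouts and 60.1 ± 2.37 FPKM in controls (SD, n = 3 each). Its partner Mcfd2 was at 197 ± 23.8 FPKM in double knockouts and 185 ± 53.1 FPKM in controls (SD, n = 3 each), with a log2 fold change of 0.12, and of 0.33 without control replicate 3.

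Downstream of trimming stand the branching and capping transferases. All 11 tested had positive fold changes (median 0.40), 0 were called, and the groups were apart in 5, all higher in double knockouts, against 22.9% of all genes in either direction. The 5, named after their values were seen, were Fut8, St6gal1, B4galt1, St3gal4 and Mgat5. The sialyltransferase St3gal3, the most abundant, measured 63.1 ± 10.1 FPKM in double knockouts and 47.2 ± 3.65 FPKM in controls, and St3gal4 59.6 ± 4.37 FPKM in double knockouts and 42.7 ± 5.96 FPKM in controls (SD, n = 3 each). Mgat1 and Mgat2, chosen after their values were seen because they act just before and just after mannosidase II, had log2 fold changes of 0.20 and 0.13 (limma adjusted p = 0.604 and 0.752), and of 0.34 and 0.0013 without control replicate 3. Without control replicate 3, Fut8 and St6gal1 were called higher, and 0 trimming genes were, where 2.05% of genes tested were called. The difference between the lists was not tested.

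The related hydrolases of the lysosome and cytosol had 0 of 6 called (4 positive, 2 negative, median 0.10, and -0.12 without control replicate 3). Gaa, the lysosomal relative of Ganab, measured 26.1 ± 0.949 FPKM in double knockouts and 24.6 ± 7.25 FPKM in controls (SD, n = 3 each). Control replicate 3 was at 16.3 FPKM and the other controls at 29.8 and 27.6 FPKM, and the log2 fold change was 0.13 with that library and -0.13 without it. Man2b1, the lysosomal mannosidase related to Man2a1, measured 27.5, 30.1 and 26.1 FPKM in double knockouts and 25.2, 22.1 and 19.7 FPKM in controls, with groups apart (log2 fold change 0.31, limma adjusted p = 0.369). Manba, the lysosomal beta-mannosidase, chosen after its values were seen, was the other hydrolase whose groups were apart (log2 fold change 0.44, limma adjusted p = 0.348), so 2 of 6 were apart, against 22.9% of all genes in either direction. A list of 16 genes for chaperones and stress responses of the endoplasmic reticulum, where the glucosidases work, had 0 called and 16 negative fold changes (median -0.44, and -0.54 without control replicate 3). It holds the transcription factors Atf4, Ddit3 and Xbp1 and the degradation factor Herpud1 beside chaperones and folding enzymes. The groups were apart in 8 of the 16, all lower in double knockouts and Ddit3 and Xbp1 among them, against 22.9% of all genes in either direction. Some of these gaps were narrow. The genes that follow to show this, and Ddit3 beside them, were picked after their values were seen. The highest double knockout and the lowest control were at 15.4 and 15.5 FPKM for Sdf2l1, 62.7 and 63.5 FPKM for Manf and 57.3 and 58.3 FPKM for Xbp1. For Ddit3 they were at 4.04 and 6.02 FPKM. P4hb, the disulfide isomerase, stood at 409 ± 44.7 FPKM in double knockouts and 570 ± 186 FPKM in controls (SD, n = 3 each). Control replicate 3 was at 784 FPKM and the other controls at 471 and 454 FPKM, and the log2 fold change of P4hb was -0.44 with that library and -0.18 without it. Herpud1, which unfolded proteins induce, stood at 211 ± 80.9 FPKM in double knockouts and 335 ± 135 FPKM in controls (SD, n = 3 each). Control replicate 2 was at 491 FPKM and the other controls at 254 and 259 FPKM. Control replicate 2 was the highest control in every gene of this list except Atf4, Dnajc3, P4hb, Pdia6 and Xbp1. Leaving out control replicate 3 gives it more weight, and the list median without control replicate 2 is not given here.

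**Figure D4:**
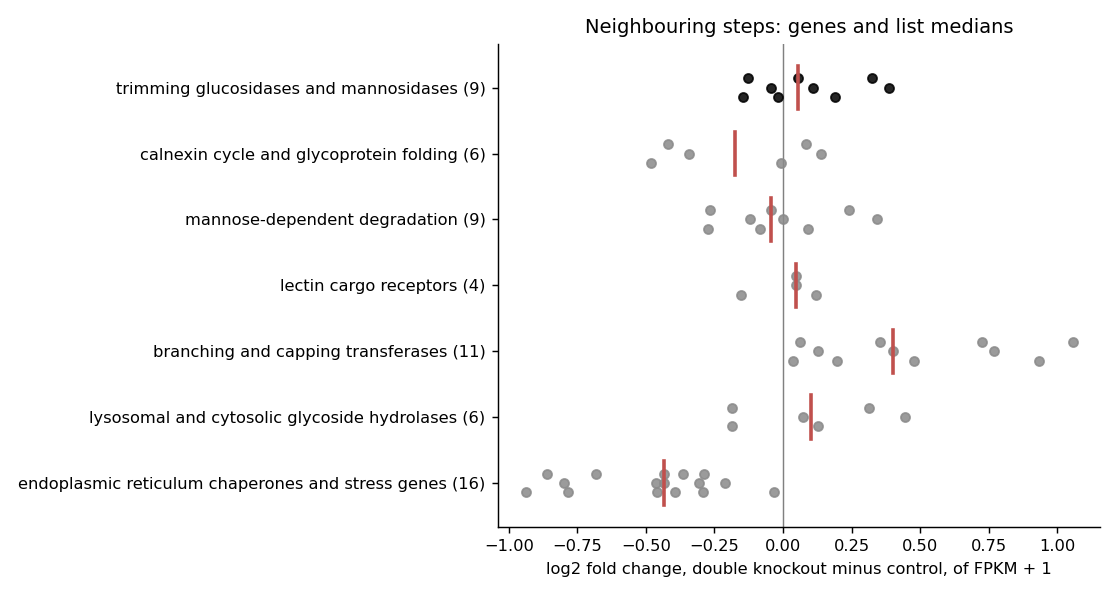
Log2 fold change of FPKM + 1, double knockout minus control (horizontal axis), of each tested trimming gene (black) and of each tested gene of 6 neighbouring steps (grey), with the median of each list as a red bar and the number of genes in brackets. The trimming genes lie around 0 (median 0.05), the 11 transferases above it (median 0.40) and the 16 chaperone and stress genes below it (median -0.44).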

How the data were processed

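Per the labels' protocols, total RNA from flash-frozen livers was made into stranded mRNA libraries. The submitters' processing notes name STAR 2.4.2a and Cuffdiff 2.2.1 among other tools and the build GRCm38 (mm10); those sources do not give the annotation release, the handling of multi-mapping reads or the strand setting. The authors deposited FPKM per library for 48699 genes, and a comparison with group FPKM, p-value and q-value per gene in Cuffdiff's layout, per the file headers. FPKM divides by transcript length and library total, so very abundant transcripts shift other values.

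The test was limma 3.58.1 in R 4.3.3 with a mean-variance trend on log2(FPKM + 1), for the 11810 genes averaging 0.5 FPKM or more, Benjamini-Hochberg adjusted over all of them at 0.05; it was tested on simulated data first. The pseudocount understates changes of low genes. Groups and replicate numbers came from sample titles, and each library was taken as 1 mouse, though the labels do not say how replicates were taken, so the p-values measure the spread between these libraries. The labels do not say whether equal numbers mark a pair, and the main test used no pairing. Correlations of same-numbered deviations were 0.22, -0.08 and 0.30, and so few libraries cannot settle the question. Depth came from values of FPKM times kb between 0.05 and 0.1, in genes over 1500 bases with 1 transcript, taken as 1 fragment. Positions are GENCODE M21 (GRCm38), whose bounds differ from the deposited locus for 5 of the 10 members (Ganab, Prkcsh, Man1a, Man1b1 and Man2a2). The members and gene lists were chosen with earlier results of these data known. Named were all 10 members, the deleted genes, and per pathway list the genes called or else the 2 most abundant; others are marked. Alternatives were other pseudocounts, filters, scalings, weights, a replicate block, and leaving out each library. Protein sequences were not used here.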

Additional observations from a re-analysis of the deposited data

How the results depend on the processing

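Across 14 alternatives and 9 tested members, 0 of 126 fits passed the threshold (lowest limma adjusted p 0.210) and 115 kept the sign of the fold change. The 11 with the opposite sign were small. Under quantile normalization the log2 fold changes were 0.091 for Ganab, 0.11 for Man1a and 0.00047 for Prkcsh, and under upper quartile scaling 0.050 for Ganab and 0.025 for Man1a. With 1 library left out they ranged from -0.25 to 0.12 for Ganab, from -0.11 to 0.019 for Man1a and from -0.020 to 0.15 for Man1b1. The members with a positive fold change were 8 under quantile normalization and 5 to 7 otherwise; the cause was not tested. With 1 library left out, 1 to 4 of 10 members had groups apart, as fewer values make overlap rarer, against 27.6% to 44.7% of all genes. The 4 were without control replicate 3, where the share of all genes was 44.7%. The calls over all genes were 37, but 563 with library weights and 2 with no filter. Without control replicates 1, 2 and 3 they were 5, 2 and 242, and without double knockout replicates 1, 2 and 3 they were 5, 4 and 6. The replicate block gave 50 calls and 0 members; not every library correlated best with its own number (control replicate 2 did not). For Man1c1, about 21 to 47 fragments a library, by the fixed-window depth estimate, limit the precision.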

Other observations

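Mogs is the most compact, with a span of 3.40 kb and 4 exons in its longest coding transcript, while Man1a spans 172 kb with 13 exons and Man2a1 154 kb with 22 exons. The start of Prkcsh lies 172 bases from that of Ccdc151 on the opposite strand, a gene at a mean of 0.627 FPKM against 57.7 FPKM for Prkcsh. Among the members, the spread between controls was widest for Ganab and Man2a2, with coefficients of variation of 7.94% and 7.69% between double knockouts and 26.4% and 24.7% between controls. For Ganab this rests on control replicate 3, at 30.5 FPKM, with the other controls at 51.8 and 49.0 FPKM.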
